A study of Homo sapiens with 2 samples.

Results

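The spleen tyrosine kinase SYK, the SRC family kinases SRC, YES1, FYN, LYN and LCK, the related kinase PTK6, the SRC-inhibiting kinase CSK and the ubiquitin ligases CBL and CBLB were examined in HCT116 cells with and without CREB1. These 10 genes were taken by symbol from the 57820 genes of the table, and each of the 10 was found there. SYK had stood out in these same libraries for its low ratio, and the others were added as its relatives and regulators, so every ratio below is a description. HCT116 is a human colorectal carcinoma line, and the transcription factor CREB1 acts through cAMP response elements in DNA. The comparison was between 1 library of cells with the CREB1 wild-type genotype and 1 library of cells with the CREB1 knockout genotype, both grown in DMEM with fetal bovine serum. The knockout was made with a PX461 plasmid for nickase Cas9 and guides against CREB1, and it is a clone grown from a lone cell. The sources used here do not say whether the wild-type cells had been cloned as well. With 1 library per genotype, a difference between genotypes, between clones and between library preparations cannot be told apart.

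SRC family kinases are held inactive by phosphorylation of a tyrosine in their tail, which CSK carries out, and are activated when phosphatases remove it. In blood cells, SRC family kinases phosphorylate ITAM motifs of immune receptors, and SYK binds these through its paired SH2 domains and passes the signal to adaptors such as BLNK and to phospholipase C gamma. Outside blood cells, SRC, YES1 and FYN act at integrin adhesions and downstream of growth factor receptors, and SYK is also made in many epithelia. CBL and CBLB attach ubiquitin to active tyrosine kinases and receptors and so promote their removal.

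The library totals were 34511071 expected counts for the wild-type and 31178312 for the knockout cells. Counts were scaled with TMM, a method that centres the ratios of most genes on no difference, and are given as CPM, counts scaled to library size. Genes with a mean of 1 CPM or more are referred to as expressed, and a gene as called when its knockout to wild-type ratio was at least 2-fold and its exact 95% interval excluded no difference. Intervals are conditional Clopper-Pearson intervals for ratios and exact Poisson intervals for levels, and they cover counting error only. Of 12886 expressed genes, 1.64% were called lower and 1.28% higher, so that 43.9% of the calls were higher (54.6% with total-count scaling). Transcripts of the targeted gene remained, with 614 wild-type and 499 knockout counts of CREB1, and a count per gene does not check for a small edit. Of 12 colon epithelial markers, 6 were expressed, with summed levels of 2986 wild-type and 2577 knockout CPM. Most of this came from the keratins KRT8 (1822 and 1582 CPM) and KRT18 (1029 and 859 CPM). EPCAM, CDH1, CDX2 and HNF4A had 93.0, 26.8, 9.72 and 5.11 wild-type CPM. KRT20, CDH17, VIL1, LGALS4, GPA33 and CDX1 were below the limit. The 14 blood cell markers summed to 0.654 and 0.876 CPM, and 9 of them, PTPRC, SPI1, CD2, CD3D, CD3E and MS4A1 among them, had 0 counts in both libraries. Of 9 fibroblast and endothelial markers, 8 were matched and COL1A1 was expressed (2.47 and 2.78 CPM), with DCN at 0 wild-type and 1 knockout counts.

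Promoter windows are shown for SYK, whose ratio was the farthest of the 10 from no difference, and for CBLB and FYN, the next farthest. Each window runs from 250 bases before to 50 bases after an annotated start and comes from RefSeq (GRCh38.p14). The set of windows used here held 16 windows for 6 of the 10 genes, and none for SRC, LYN, PTK6 and CBL. CREB1 binds the palindrome TGACGTCA, the full cAMP response element, or its core TGACG. Capitals mark the core on either strand (TGACG or CGTCA), and a full element would count as a core too. Not every window of these genes is printed, and those printed for CBLB and FYN are ones that hold the core. The other FYN windows hold none, those with 69.0% and 82.3% G and C among them.
SYK start in the CG-rich region, chr9:90801569-90801868, plus strand: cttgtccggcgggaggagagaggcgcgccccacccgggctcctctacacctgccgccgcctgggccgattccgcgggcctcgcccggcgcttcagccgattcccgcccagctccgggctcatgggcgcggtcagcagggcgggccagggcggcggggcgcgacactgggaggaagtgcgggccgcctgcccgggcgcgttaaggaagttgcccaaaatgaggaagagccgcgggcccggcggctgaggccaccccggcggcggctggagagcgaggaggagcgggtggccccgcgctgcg
SYK downstream start, chr9:90827170-90827469, plus strand: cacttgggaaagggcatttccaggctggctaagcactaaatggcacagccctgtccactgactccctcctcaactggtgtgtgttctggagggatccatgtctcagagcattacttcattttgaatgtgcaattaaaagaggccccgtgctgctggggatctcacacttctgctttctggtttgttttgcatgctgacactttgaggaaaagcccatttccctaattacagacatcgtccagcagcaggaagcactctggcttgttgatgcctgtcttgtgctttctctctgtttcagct
CBLB, chr3:105868963-105869262, minus strand: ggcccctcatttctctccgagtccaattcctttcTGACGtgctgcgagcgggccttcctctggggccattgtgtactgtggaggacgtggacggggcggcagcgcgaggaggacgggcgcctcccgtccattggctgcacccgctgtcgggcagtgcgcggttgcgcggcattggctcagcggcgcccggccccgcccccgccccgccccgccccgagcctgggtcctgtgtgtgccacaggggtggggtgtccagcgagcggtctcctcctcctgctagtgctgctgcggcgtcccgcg
FYN downstream start, chr6:111759868-111760167, minus strand: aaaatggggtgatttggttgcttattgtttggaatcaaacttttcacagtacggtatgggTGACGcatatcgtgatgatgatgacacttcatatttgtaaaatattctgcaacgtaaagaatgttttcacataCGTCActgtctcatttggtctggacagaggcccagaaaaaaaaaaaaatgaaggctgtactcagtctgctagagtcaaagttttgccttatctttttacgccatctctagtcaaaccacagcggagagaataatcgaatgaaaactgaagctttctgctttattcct

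No full element was found in any of the 16 windows, and the core was found in 0 of 3 SYK windows, 2 of 5 CBLB windows, 1 of 4 FYN windows and the only YES1 window. Counted from 1 at the window's 5′ end, the printed CBLB window has its core at position 35 and the printed FYN window at positions 61 and 134. Both windows of LCK and the only CSK window had none. Over all 35116 windows of the same length, 24.6% held the core and 1.85% the full element, and among the 13589 windows of expressed protein-coding genes the shares were 32.2% and 2.83%. The core was in 53 of 212 windows of genes called lower and in 31 of 172 windows of genes called higher, here genes of any type. The full element was in 8 of the 212 (3.77%) and 5 of the 172 (2.91%). The first SYK window printed had 76.7% G and C and 40 CG pairs, and the second had 49.0% and 2 CG pairs. A match or its absence describes the letters of these windows and says nothing about binding.

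SYK was the member that differed between the libraries by far more than counting error. SYK (ENSG00000165025.10, chromosome 9) had 301 wild-type and 37 knockout counts. These are 8.95 CPM (95% Poisson interval 7.96 to 10.0) and 1.16 CPM (0.815 to 1.59). The knockout library was thus the low one, and the intervals lay apart. In bulk RNA, fewer cells that express a gene and less of its RNA per cell cannot be told apart. The log2 ratio was -2.93 (interval -3.48 to -2.45), which is 7.64-fold lower (5.48 to 11.2), and 12 of the 12886 expressed genes, SYK included, had a ratio this low or lower. SYK was above 1 CPM in each library, so that it passed the expression limit in either. It was the only one of the 9 expressed members that was called, against a background of 1.64% called lower; this share is not evidence about the members, since SYK was chosen on its ratio.

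Among the SRC family, YES1 and SRC, which are made in most tissues, were nearly alike in both libraries. YES1 (ENSG00000176105.9, chromosome 18), the member with the most counts, had 2098 wild-type and 1850 knockout counts (62.4 and 57.9 CPM). Its log2 ratio of -0.11 had an interval just below 0 (-0.20 to -0.02). SRC (ENSG00000197122.7, chromosome 20), the founding member of the family, had 635 and 665 counts (18.9 and 20.8 CPM), with a log2 ratio of 0.14 and an interval, -0.02 to 0.30, on both sides of 0. The Poisson intervals of the 2 libraries overlapped for both genes.

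FYN and LYN were lower in the knockout library by less than 2-fold. FYN (ENSG00000010810.13, chromosome 6), which acts at adhesions and in T cell and neuronal signalling, had 185 and 117 counts (5.50 and 3.66 CPM). Its log2 ratio was -0.59 (interval -0.93 to -0.25), or 0.666 of the wild-type level, and its Poisson intervals did not overlap. LYN (ENSG00000254087.3, chromosome 8), best known from B cells and mast cells, had 519 and 426 counts (15.4 and 13.3 CPM), with a log2 ratio of -0.21 (-0.40 to -0.02). The Poisson intervals of LYN overlapped, and under total-count scaling its ratio interval included 0 (-0.33 to 0.05). LCK (ENSG00000182866.12, chromosome 1), the kinase of the T cell receptor, had 6 and 7 counts and was not expressed by the limit used. Its level was 0.178 and 0.219 CPM, and its log2 ratio of 0.27 (-1.50 to 2.14) was not resolved at this depth.

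Taken as a family, SRC, YES1, FYN, LYN and LCK summed to 3443 wild-type and 3065 knockout counts, a log2 ratio of -0.09 (-0.16 to -0.02). This ratio was computed with TMM only. Under total-count scaling the interval of YES1, which held most of these counts, included 0 (-0.13 to 0.06). Shares of the family sum do not depend on the scaling between libraries. In wild-type cells YES1 held 60.9% of it (Clopper-Pearson interval 59.3% to 62.6%), and in knockout cells 60.4% (58.6% to 62.1%). The share of SRC was 18.4% (17.2% to 19.8%) and 21.7% (20.2% to 23.2%), and that of FYN was 5.37% (4.64% to 6.18%) and 3.82% (3.17% to 4.56%). Within the family, SRC thus took a larger and FYN a smaller share in the knockout library, with intervals that lay apart, while YES1 held most of the counts in both.

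PTK6, an epithelial relative of SRC also known as BRK, was not resolved between the libraries. PTK6 (ENSG00000101213.5, chromosome 20) had 148 wild-type and 117 knockout counts (4.40 and 3.66 CPM), with a log2 ratio of -0.26 (-0.63 to 0.09).

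CSK and the CBL genes, which restrain these kinases, had ratios above 0. Those of SRC and LCK were above 0 as well, with intervals that included it. Of all expressed genes, 41.8% had a ratio at least as far from 0 as that of CSK, and 40.7% as that of CBL. CSK (ENSG00000103653.12, chromosome 15) had 559 wild-type and 632 knockout counts (16.6 and 19.8 CPM), with a log2 ratio of 0.25 (0.08 to 0.42). CBL (ENSG00000110395.4, chromosome 11) had 848 and 963 counts (25.2 and 30.1 CPM), with a log2 ratio of 0.26 (0.12 to 0.39). For CBL the knockout library was the high one and the Poisson intervals lay apart, while for CSK they lay apart by a narrow margin.

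CBLB, a ligase best known for restraining T cell activation, had the highest ratio of the 10 genes. CBLB (ENSG00000114423.14, chromosome 3) had 99 wild-type and 160 knockout counts (2.94 and 5.00 CPM). The log2 ratio was 0.76 (0.40 to 1.14), a 1.70-fold higher level that stayed under the 2-fold limit, and 341 expressed genes had a ratio this high or higher. Of the sum of CBL and CBLB counts, CBLB held 10.5% in wild-type cells (8.58% to 12.6%) and 14.2% in knockout cells (12.3% to 16.4%), and these intervals overlapped.

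**Figure D1:**
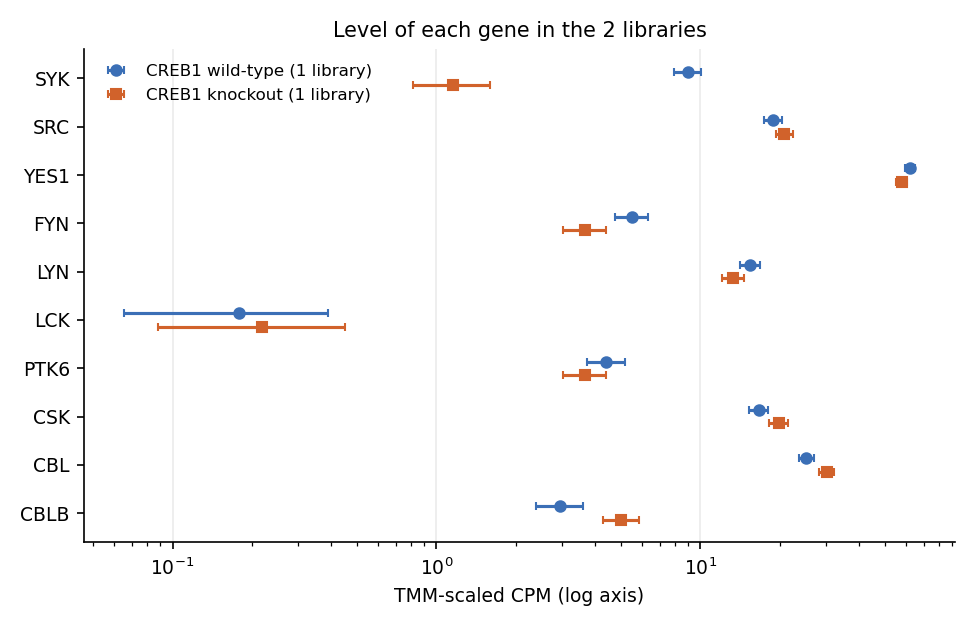
Level of each of the 10 genes as TMM-scaled CPM on a log axis, in the wild-type (circles) and knockout (squares) library, with exact 95% Poisson intervals that cover counting error only. SYK stands at 8.95 CPM against 1.16 CPM, while the 2 marks of each other gene lie within 2-fold of each other.

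Over the 9 expressed members, 4 intervals lay below 0 (SYK, FYN, LYN and YES1), 3 above it (CSK, CBL and CBLB) and 2 included it (SRC and PTK6). Among all expressed genes, 25.5% of intervals lay below 0 and 26.4% above, 51.9% in all, so an interval that excludes 0 was common in this pair of libraries. The median log2 ratio of the 9 members was -0.11, beside 0.01 for all expressed genes. Under total-count scaling, or with totals taken without the 5 highest genes, the intervals of YES1 and LYN included 0 and that of SRC lay above it. SYK and FYN stayed below 0 and CSK, CBL and CBLB above it under each of the 5 scalings tried.

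**Figure D2:**
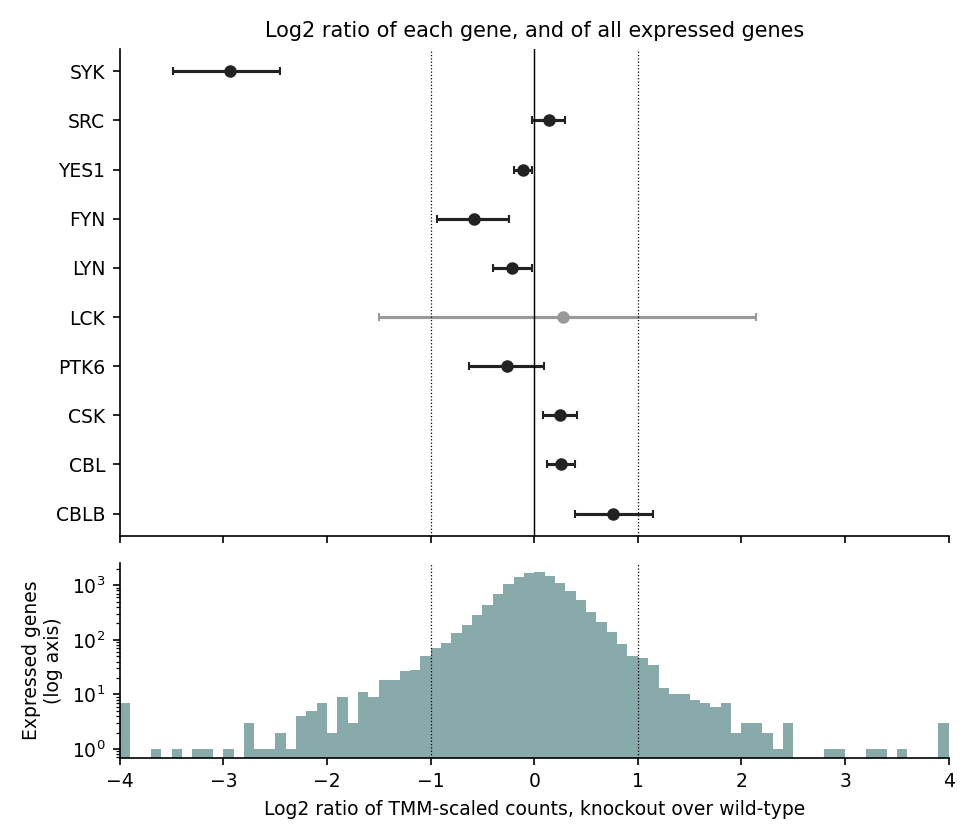
Top, log2 ratio of TMM-scaled counts, knockout over wild-type, for each of the 10 genes with its 95% counting interval (LCK in grey, not expressed); bottom, number of expressed genes by log2 ratio on a log axis, with ratios beyond the axis in the end bars and dotted lines at 2-fold. SYK at -2.93 lies far into the sparse lower tail, and the other 8 expressed genes lie between -0.59 and 0.76.

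Levels of different genes were compared per length, as TMM-scaled CPM per kb of the union of exons in GENCODE 29. In the wild-type library YES1 had the highest level, 12.2 CPM per kb, followed by CSK (3.64), SRC (2.92), LYN (2.49), CBL (2.15), SYK (1.72), PTK6 (1.49), FYN (0.742), CBLB (0.240) and LCK (0.0534). The intervals of SRC and LYN, of LYN and CBL, and of SYK and PTK6 overlapped, so that the order within these pairs was not resolved. In the knockout library SYK had 0.222 CPM per kb and came after FYN (0.494) and CBLB (0.408), whose intervals overlapped, and above LCK (0.0656). SYK thus stood 6th of 10 in the wild-type and 9th in the knockout library. The level per length of SYK depended little on the length used, since its longest transcript gave 1.79 and 0.231 CPM per kb, but that of FYN was 1.52 and 1.01 with its longest transcript, which placed it above PTK6 in the wild-type library. With the longest transcripts the intervals of SYK, FYN and PTK6 overlapped in the wild-type library and those of SYK and LCK in the knockout library. The order among these genes was thus not resolved.

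**Figure D3:**
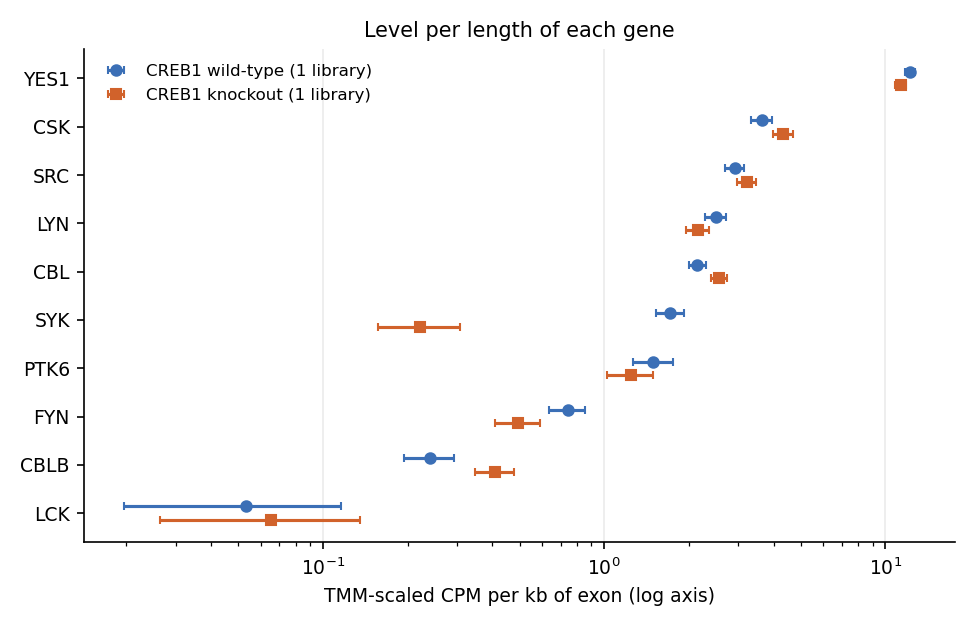
Level per length of the 10 genes, as TMM-scaled CPM per kb of exon on a log axis, ordered by the wild-type library (circles; squares are the knockout library; bars are exact 95% Poisson intervals). YES1 is highest at 12.2 and 11.3 CPM per kb, and SYK moves from 1.72 to 0.222.

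The counts of all 10 genes were whole numbers in both libraries, as they are when no read is divided between genes. In GENCODE 29 transcripts, stretches of 50 bases shared on the sense strand with transcripts of other genes made up 0.153% of those of SYK and none of those of SRC, FYN, LCK, CSK and CBLB. The share was 4.55% for YES1, which has the pseudogene copy YES1P1, and 3.09% for PTK6. CBL overlaps the gene MCAM on the opposite strand, with 3.91% of its stretches shared on the antisense strand in all. MCAM, a cell adhesion molecule, had 952 and 597 counts, a log2 ratio of -0.60 that is opposite in sign to that of CBL. The libraries were strand-specific, but the sources used here do not say which strand setting was used for counting.

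The low ratio of SYK was not shared by its neighbours on chromosome 9 (gene order of GRCh38). The 10 nearest expressed protein-coding genes, 5 on each side, had log2 ratios between -0.40 and 0.44 with a median of 0.06, and 0 of 10 were called. On the side before SYK the nearest was SEMA4D, a semaphorin, with 184 wild-type and 238 knockout counts (log2 ratio 0.44, interval 0.16 to 0.73). It was followed by the selenoprotein synthesis factor SECISBP2 (0.20), CKS2 (-0.38), SPIN1 (0.03) and CDK20 (-0.02). On the other side the nearest was AUH, a mitochondrial hydratase, with 474 and 478 counts (0.09, interval -0.10 to 0.27). Beyond it lay the transcription factor NFIL3 (-0.02), the WNT5A receptor ROR2 (0.26), SPTLC1 (0.11) and IARS (-0.40). Of 54 neighbours of the other 9 members, 3 on each side, 0 were called and the log2 ratios ran from -0.61 to 0.73.

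**Figure D4:**
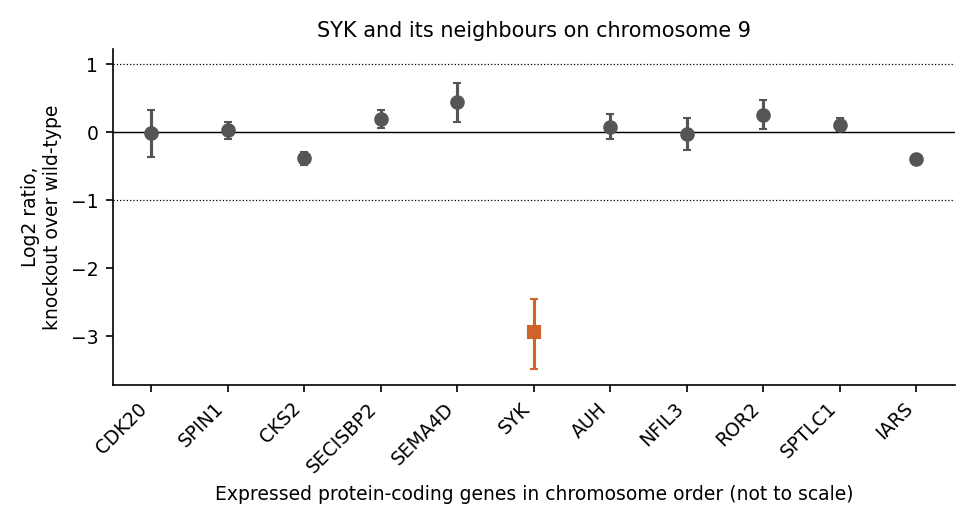
Log2 ratio of TMM-scaled counts, knockout over wild-type, for SYK (square) and the 5 expressed protein-coding genes on each side of it in chromosome order, with 95% counting intervals and dotted lines at 2-fold. SYK lies at -2.93 and its 10 neighbours between -0.40 and 0.44.

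The expressed protein-coding genes whose ratios were nearest to that of SYK were taken as the most alike, a likeness that rests on 2 libraries. They were CA12 (log2 ratio -2.76, 103 and 14 counts), AC025283.2 (-2.75, 81 and 11 counts), CPLX1 (-2.72, 100 and 14 counts), ACVR1C (-3.17, 80 and 8 counts) and ARFGAP3 (-2.63, 531 and 81 counts). Each of their intervals overlapped that of SYK, and 4 of the 5 had fewer counts than SYK in both libraries. These 4 passed the expression limit through the wild-type library only. Knockout levels were 0.438 CPM for CA12, 0.344 for AC025283.2, 0.438 for CPLX1 and 0.250 for ACVR1C. ARFGAP3 was above the limit in both libraries (15.8 and 2.53 CPM).

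The genes around these kinases were examined in 6 lists of 115 measured genes, of which 77 were expressed. Called higher was 1 of them (1.30%) and called lower was 1 (1.30%), beside 1.28% and 1.64% of all expressed genes, so the share called was near the background. The median log2 ratio was 0.10 over the 77, beside 0.01 over all expressed genes.

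Of 9 further relatives of the SRC, SYK, CSK and CBL genes, 4 were expressed and 0 were called, with a median log2 ratio of -0.02. CBLC, the epithelial CBL gene, had 528 and 493 counts (15.7 and 15.4 CPM, log2 ratio -0.03), and FRK, an epithelial kinase of the SRC group, had 226 and 213 (-0.01). SRMS, the neighbour and relative of PTK6, had 50 and 31 counts (-0.61, interval -1.31 to 0.06). ZAP70, the other kinase of the SYK family, had 3 wild-type and 5 knockout counts, and FGR, BLK and MATK, which are mainly made in blood cells and brain, had 0 in both.

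Of 17 other non-receptor tyrosine kinases, 13 were expressed, 0 were called and the median was 0.13. Of these 13, 11 lay above 0 and 5 had an interval above 0, beside 51.2% and 26.4% of all expressed genes. The exception in size was PTK2B, the FAK relative also known as PYK2, with 208 wild-type and 100 knockout counts (6.18 and 3.13 CPM). Its log2 ratio of -0.98 (-1.34 to -0.63) lay just inside the 2-fold limit and passed it with DESeq2 size factors. FAK itself, PTK2, had 2211 and 2314 counts (0.14), and ABL1 (0.30), TNK2 (0.25) and ABL2 (0.23) were slightly above 0.

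Among 18 phosphatases and membrane anchors that set the activity of SRC and SYK kinases, 14 were expressed, 1 was called lower and the median was 0.01. The called gene was PAG1, the transmembrane adaptor also known as CBP that brings CSK to the membrane. PAG1 had 114 wild-type and 26 knockout counts (3.39 and 0.813 CPM), and was 4.11-fold lower (2.70 to 6.65). It passed the expression limit through the wild-type library, and it was below the limit when a mean of 5 CPM was asked for. Caveolin CAV1, which binds SRC kinases, was lower by less (2680 and 1711 counts, log2 ratio -0.57). The phosphatases PTPN12, which acts on the substrate BCAR1, and PTPRK were higher, with 204 and 309 counts (0.67, interval 0.41 to 0.93) and 972 and 1434 counts (0.63, interval 0.52 to 0.75), under the 2-fold limit. PTPN6 (-0.14) and UBASH3B (0.38), phosphatases that act on SYK, had 849 and 733 counts and 914 and 1128 counts.

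Of 38 substrates and adaptors, 29 were expressed, 1 was called higher and the median was 0.13. The called gene was SKAP1, an adaptor of T cells that FYN phosphorylates, with 89 wild-type and 849 knockout counts (log2 ratio 3.32). Its partner FYB1 and the blood cell adaptors LCP2 and DAPP1 had 0 counts in both libraries, and BLNK had 2 and 0. The related SKAP2 had 338 and 270 counts (-0.25). VAV1, an exchange factor for RAC that SYK phosphorylates, was lower by less than 2-fold with 593 and 310 counts (-0.86, interval -1.07 to -0.66), while VAV2 had a log2 ratio of 0.10. The membrane adaptor LAT2 had 103 and 66 counts (-0.57), and the adhesion protein TNS3, a SRC substrate, had 703 and 1182 (0.82, interval 0.69 to 0.96). PLCG2, a phospholipase downstream of SYK, had 417 and 408 counts (0.04), and its relative PLCG1 had 847 and 1029 (0.35).

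CBL partners held 17 expressed genes of 20, with 0 called and a median of 0.00. The farthest from 0 were the adaptor SH2B3 (527 and 862 counts, log2 ratio 0.78), the endocytic adaptor EPS15 (772 and 509 counts, -0.53), SORBS3 (315 and 430 counts, 0.52) and SH2B2 (124 and 85 counts, -0.47). Of the ubiquitin-conjugating enzymes that serve CBL, UBE2D2 (-0.17) and UBE2D3 (-0.12) were slightly below 0, with intervals below it. UBE2D1 (-0.18) and UBE2L3 (-0.07) had intervals that included 0.

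ITAM and hemITAM motifs of receptors are the classical docking sites of SYK. The list of 13 genes made for them had 0 expressed members, but 1 of these, CLEC2D (9.02 and 27.0 expected counts), carries no such motif. The other 12 summed to 34 wild-type and 16 knockout counts, and 6 of them had 0 counts in both libraries. CD79B had 23 and 10 counts, and FCER1G, the common gamma chain, had 3 and 4.

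**Figure D5:**
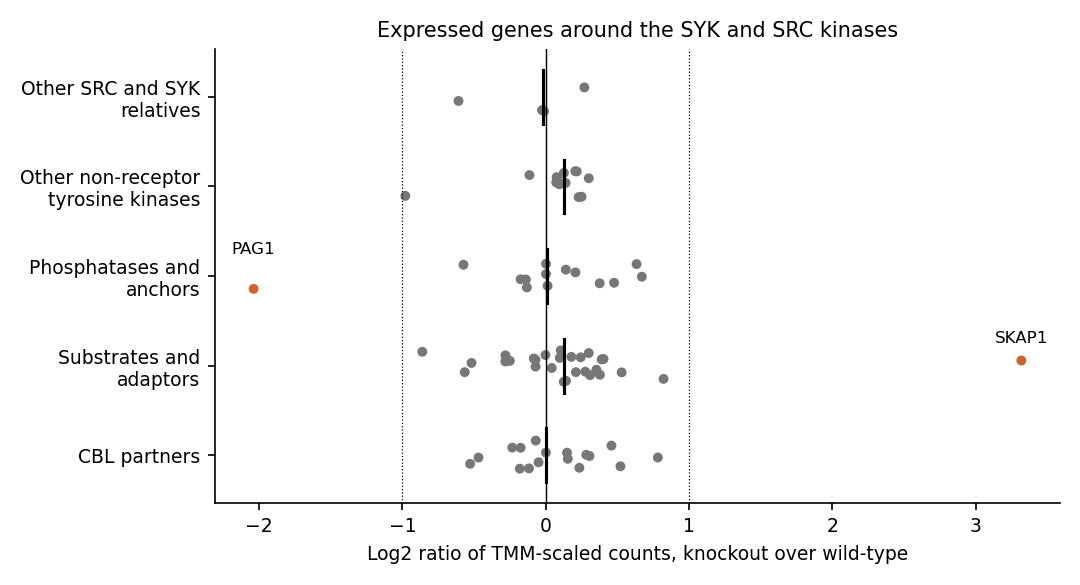
Log2 ratio of TMM-scaled counts, knockout over wild-type, for the 77 expressed genes of the lists around these kinases, 1 point per gene, with the median of each list as a bar and dotted lines at 2-fold. PAG1 at -2.04 and SKAP1 at 3.32 are the called genes (orange), and the remaining 75 lie inside 2-fold.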

How the data were processed

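Strand-specific total RNA libraries, depleted of ribosomal RNA, were made from 1 wild-type and 1 knockout culture, per the labels' protocols. The authors deposited expected counts per gene, which are estimated counts not scaled between libraries. The tools named are cutadapt 2.0, STAR 2.4.2a and RSEM 1.2.26, with the build hg19, per the submitters' processing notes. The sources used here give no annotation release, strand setting or filter. 0 columns were left unmapped. Names, gene order and exon lengths came from GENCODE 29 (GRCh38) by Ensembl identifier without version, which matched 52338 identifiers (90.5%); those without a match held 37.0% of wild-type and 35.2% of knockout counts and stayed in the totals. Because the builds differ, coordinates are printed for RefSeq promoter windows only.

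Expected counts were rounded and scaled with TMM in edgeR 4.0.16 (R 4.3.3). Log2 ratios used a prior count of 0.5, and folds are taken from them. With 1 library per group no p-value was computed. Intervals (scipy 1.17.1 and R) cover counting error and treat reads as independent molecules.

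The members, the lists and the tests were chosen with earlier results of these data known. The genes named were the members, the neighbours of SYK, the 5 genes nearest to its ratio, CREB1, and in each list the called genes and up to 4 with the largest ratios. List genes named beyond these, namely those described by their role beside a named relative, those at or near 0 counts, and MCAM as an overlapping gene, were chosen after their values were seen. CLEC2D was left out of the ITAM receptors after its values were seen. Alternatives were total-count, DESeq2 1.42.0 and upper-quartile scaling, totals without the 5 highest genes, a prior count of 2, counts not rounded, limits of 5 CPM or none, a 1.5-fold limit and the longest transcript as length. Identity between the proteins was planned but not computed, since protein sequences were not used here.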

Additional observations from a re-analysis of the deposited data

How the results depend on the processing

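The 10 ratios were recomputed under 6 alternatives, and the 60 values kept their sign and stayed inside the interval of the reported value. Of these alternatives, counts not rounded could change none of the ratios, since all 10 genes had whole counts. That of SYK ran from -2.96 to -2.86 over the 5 scalings. The number of genes called higher was 275 with totals without the 5 highest genes (which changes both the CPM limit and the factor between libraries, with 13900 genes expressed; their separate parts were not tested), 75 at a mean of at least 5 CPM, 451 with no filter and 677 at 1.5-fold, against 165; called lower were 62, 635 and 709 under the last 3, against 211. Among the lists, PTK2B made 1 other non-receptor kinase called lower with DESeq2 size factors. At 5 CPM, 0 phosphatases and anchors were called lower, since PAG1 is below that limit. Of the 13 genes listed as ITAM receptors, 1 was called higher with totals without the 5 highest genes, and with no filter 1 was called higher and 1 lower. In both settings the gene called higher was CLEC2D, which carries no such motif, so these calls rest on it alone. Its log2 ratio with TMM was 1.60 (interval 0.53 to 2.93), the only interval of the list above 0. At the reported settings 0 were called with CLEC2D and 0 without it. Leaving it out, a choice made after seeing the data, thus could change no call there. The list without CLEC2D was not run under the other settings. With the longest transcript as length, 10 of 20 levels moved outside their counting interval, those of SRC, YES1, FYN, CSK and CBLB. No paired analysis was possible because each group holds 1 library, and for the same reason no library could be left out. Depth limits LCK, whose 6 and 7 counts allow ratios from 0.353 to 4.42.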
